A study of Mus musculus with 9 samples.

Results

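The genes described here are 9 components of interferon signaling: the receptor chains *Ifnar1*, *Ifnar2*, *Ifngr1* and *Ifngr2*, the kinases *Jak1* and *Tyk2*, the transcription factors *Stat2* and *Irf9*, and the feedback inhibitor *Usp18*. They were chosen by symbol, as the rows whose Ensembl identifiers map to these names, and all 9 were among the 13708 genes of the table and among the 13594 that could be tested. The values come from bulk RNA-seq of macrophages sorted from mouse fetal livers at E15.5, in 5 Mrc1Cre Xpr1fl/fl samples (called Cre+ samples) and 4 Xpr1fl/fl samples (called controls). Both groups carried *Xpr1*, a phosphate exporter, with exon 2 flanked by *loxP* sites, and the Cre+ group also carried an iCre and eYFP construct inserted into *Mrc1*. *Mrc1* encodes CD206, so Cre acts in differentiated CD206+ macrophages and also in liver sinusoidal endothelial cells. The sources used here do not state whether a sample came from 1 embryo or from pooled embryos, so p-values measure the spread between these samples, which may be technical in part.

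Type I interferons bind a receptor made of IFNAR1 and IFNAR2, which activates the kinases TYK2 and JAK1, and interferon gamma binds IFNGR1 and IFNGR2. STAT2 joins a partner STAT and IRF9 in the complex ISGF3, which binds interferon-stimulated response elements (ISRE) in the promoters of induced genes. USP18 removes ISG15 from proteins and also binds IFNAR2, where it dampens further signaling. The genes of receptors and kinases are expressed in most cells without stimulation, whereas *Stat2*, *Irf9* and *Usp18* are themselves induced by interferon.

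Normalized counts of *Xpr1*, the targeted gene, were 1073.7 to 1285.3 in Cre+ samples and 1780.9 to 2239.2 in controls, without overlap (log2 fold change −0.77, limma adjusted p = 4.13e-05). Counts are per gene, and transcripts that lack exon 2 can still contribute. Totals per sample were 26942921.3 to 28309443.1 normalized counts and are set by the normalization, so absolute depth is unknown. All 16 macrophage markers that were checked had values in every sample, with summed levels of 533246.5 to 632356.1 in Cre+ samples and 616211.6 to 802322.3 in controls. They include *Timd4*, *Clec4f* and *Vsig4*, which the authors report as reduced in these Cre+ macrophages, so the sums do not measure macrophage content alone. The authors state that the sort took in macrophages with high and with low Tim4, and that Cre+ embryos had a population with low Tim4. Its part in the differences was not tested. The table's column names carry 3 dates whose meaning is not given. Cre+ sample 5 shares the earliest with controls 1 to 3, control 4 carries the middle date, and Cre+ samples 1 to 4 carry the latest. A fit that includes the date (the date fit) therefore takes the difference between genotypes from Cre+ sample 5 and controls 1 to 3 alone, and outside those 4 samples date and genotype cannot be told apart.

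*Stat2*, *Irf9* and *Usp18* were all higher in Cre+ macrophages, with a median log2 fold change of 0.80, while the receptors and kinases moved little in either direction, with a median of 0.10. *Usp18* rose most, to 2.56 times the control mean. Of the 6 receptor and kinase genes, *Jak1* was higher, *Ifnar2* was lower and the other 4 did not pass the test. The log2 fold changes of these 6 genes ran from −0.16 to 0.21, and those of the inducible genes from 0.22 to 1.37. *Irf9*, at 0.22, was close to *Jak1*, at 0.21, so the contrast between the groups rests on *Stat2* and *Usp18*. The median absolute log2 fold change of all genes tested was 0.25. Among the 9 genes, 4 were higher and 1 was lower (limma adjusted p under 0.05, with Benjamini-Hochberg adjustment over all genes tested). Among all genes tested 21.5% were higher, 21.6% were lower and the median log2 fold change was 0.00, so 5 of 9 called genes stand beside a background of 43.1%. Every Cre+ sample was above every control for 2 of the 9 genes, *Irf9* and *Usp18*, beside 16.6% of all genes tested in that direction and 34.1% in either. Since many genes differed between these samples, neither share sets the 9 genes apart.

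**Figure D1:**
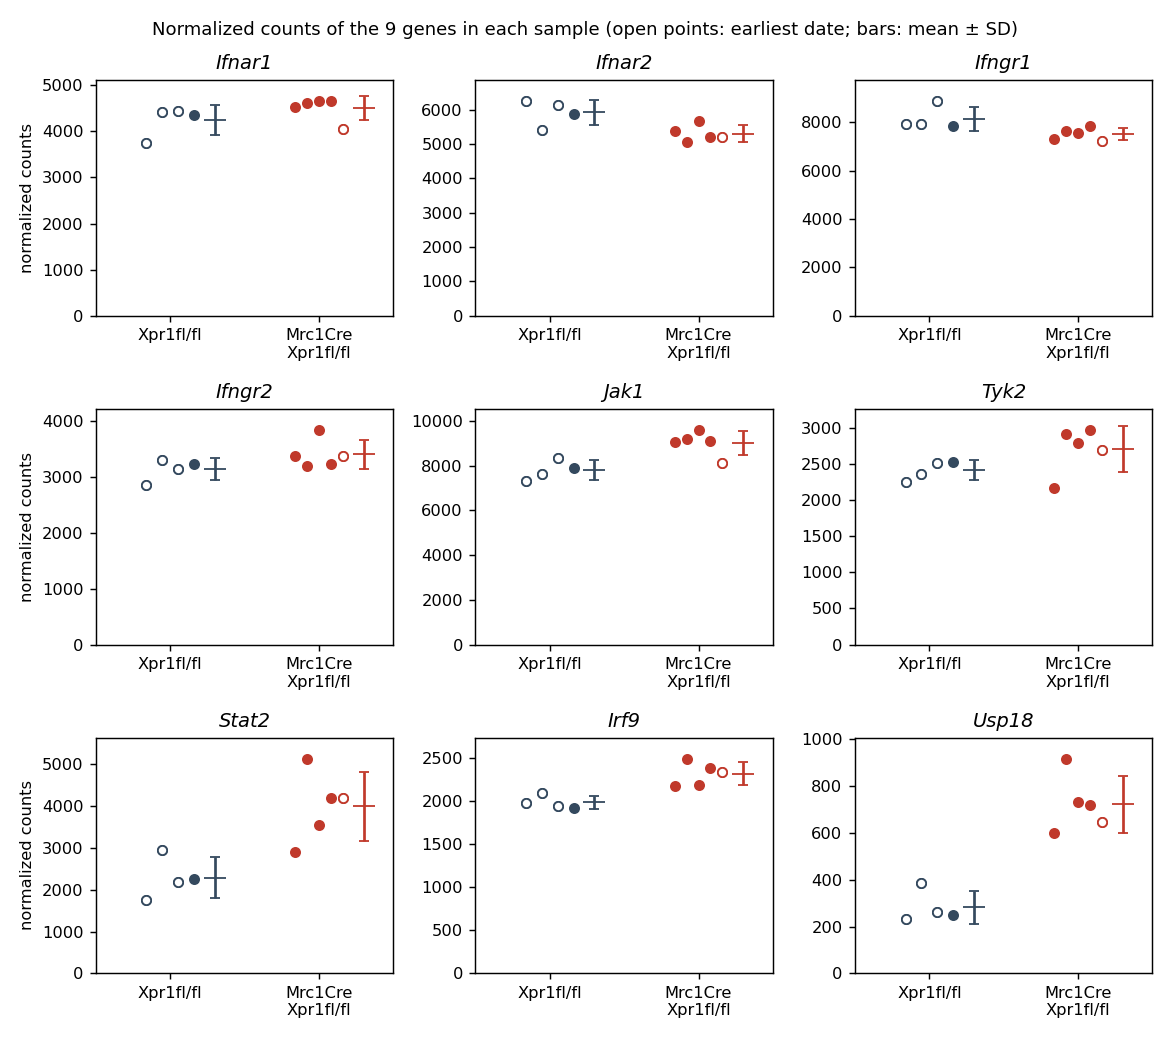
Normalized counts (y axes, from 0) of each of the 9 genes in the 4 Xpr1fl/fl and 5 Mrc1Cre Xpr1fl/fl samples, 1 point per sample, with open points for the samples of the earliest date and bars for the mean ± SD of a group. All Cre+ samples lie above all controls for *Usp18* and *Irf9*, and 4 of 5 do so for *Stat2*, *Ifnar1*, *Jak1* and *Tyk2*. The groups overlap for *Stat2* and for the 6 receptor and kinase genes.

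The chains of the type I receptor were measured at similar levels in both genotypes. *Ifnar1* (ENSMUSG00000022967, chromosome 16 of GRCm39, 91281942 to 91305789, plus strand) had 4534.0, 4615.1, 4654.8, 4657.6 and 4052.4 normalized counts in Cre+ samples 1 to 5. Controls 1 to 4 had 3754.6, 4414.1, 4445.7 and 4363.4. The groups overlapped through Cre+ sample 5, which lay below 3 of the 4 controls, and the means were 4502.8 ± 256.7 (SD, n = 5) and 4244.4 ± 328.3 (SD, n = 4). The log2 fold change of 0.09 (95% confidence interval −0.05 to 0.23, limma adjusted p = 0.301) did not pass the test, and it was −0.05 in the date fit.

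*Ifnar2* (ENSMUSG00000022971), which encodes the chain that USP18 binds, lies upstream of *Ifnar1* on the same strand, from 91169618 to 91202723. Cre+ samples held 5379.6, 5059.6, 5676.0, 5211.0 and 5198.6 normalized counts of it, against 6248.9, 5417.1, 6139.3 and 5878.9 in controls. Cre+ samples 1, 2, 4 and 5 were below all controls, and Cre+ sample 3 was above control 2. The mean in Cre+ samples was 0.896 times that of controls, which is −0.16 on the log2 scale (95% confidence interval −0.28 to −0.04, limma adjusted p = 0.0374). The direction was the same in all 20 alternative fits, but the call was lost in 10 of them, with adjusted p-values of up to 0.268. Among the fits that each left out 1 sample it passed only without Cre+ sample 3 (adjusted p = 0.0283) or without control 2 (adjusted p = 0.0133), and without control 3 the adjusted p was 0.103. A readthrough gene that shares exons with *Ifnar2* and *Il10rb*, *Gm21970*, averaged 33.6 normalized counts in Cre+ samples and 11.7 in controls, against means of 5305.0 and 5921.0 for *Ifnar2*.

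*Ifngr1* (ENSMUSG00000020009, chromosome 10, 19467697 to 19485977, plus strand), the ligand-binding chain of the interferon gamma receptor, measured 7329.6, 7647.3, 7559.2, 7865.4 and 7213.0 normalized counts in Cre+ samples. It measured 7922.6, 7920.8, 8880.7 and 7853.3 in controls. Cre+ sample 4 lay just above control 4, and the other Cre+ samples were below all controls. The log2 fold change was −0.11 (95% confidence interval −0.23 to 0.00) and did not pass (limma adjusted p = 0.0953). After rescaling each sample to its 75th percentile it was −0.19 and passed (limma adjusted p = 0.00949), as it did after quantile normalization (−0.20, limma adjusted p = 0.0084).

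For *Ifngr2* (ENSMUSG00000022965, chromosome 16, 91343906 to 91362512, plus strand), the second chain, Cre+ samples had 3370.1, 3192.7, 3829.0, 3218.3 and 3357.5 normalized counts. Controls had 2848.6, 3301.1, 3141.1 and 3228.6. The groups overlapped, with Cre+ sample 3 highest and control 1 lowest, and the log2 fold change of 0.12 (95% confidence interval −0.03 to 0.26, limma adjusted p = 0.173) did not pass. *Ifnar2*, *Il10rb*, *Ifnar1* and *Ifngr2* follow each other on the plus strand of chromosome 16. The first pair was lower in Cre+ samples (*Il10rb*, a chain of the interleukin 10 receptor, by −0.24 on the log2 scale, limma adjusted p = 0.00959), and the log2 fold changes of the second pair were positive and did not pass.

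*Jak1* (ENSMUSG00000028530, chromosome 4, 101008838 to 101122487, minus strand) encodes a kinase that both receptors use. Its normalized counts were 9040.5, 9180.6, 9587.8, 9088.3 and 8110.1 in Cre+ samples and 7327.4, 7609.3, 8356.6 and 7872.6 in controls. Cre+ samples 1 to 4 were above all controls, and Cre+ sample 5 lay between control 4 and control 3. The means were 9001.5 ± 543.0 (SD, n = 5) and 7791.5 ± 437.6 (SD, n = 4), a ratio of 1.16, and the log2 fold change was 0.21 (95% confidence interval 0.08 to 0.34, limma adjusted p = 0.0142). This call depended on scaling and date: it was 0.13 with 75th percentile scaling (limma adjusted p = 0.0709), 0.12 with quantile normalization (limma adjusted p = 0.0848) and 0.07 in the date fit (limma adjusted p = 0.683). The 3′ end of *Jak1* overlaps *Raver2* on the opposite strand, which averaged 163.8 normalized counts in Cre+ samples and 404.0 in controls. The kit keeps strand, but the strand setting of the quantification is not given in the sources used here.

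*Tyk2* (ENSMUSG00000032175, chromosome 9, 21015363 to 21042689, minus strand) encodes the kinase bound to IFNAR1. It had 2172.7, 2916.3, 2794.3, 2975.3 and 2705.6 normalized counts in Cre+ samples and 2255.2, 2369.0, 2523.0 and 2535.1 in controls. Cre+ samples 2 to 5 were above all controls, whereas Cre+ sample 1 was the lowest of all samples. The log2 fold change of 0.16 (95% confidence interval −0.03 to 0.35, limma adjusted p = 0.165) did not pass. Without Cre+ sample 1 it was 0.24 and passed (limma adjusted p = 0.0108), so that 1 library decided the call.

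*Stat2* (ENSMUSG00000040033, chromosome 10, 128106352 to 128128735, plus strand) encodes the transactivating subunit of ISGF3. Cre+ samples held 2912.2, 5124.1, 3552.1, 4188.3 and 4200.4 normalized counts, and controls held 1756.9, 2960.7, 2178.1 and 2261.4. Both groups were spread widely: Cre+ sample 1 lay just below control 2, and the other 4 Cre+ samples were above all controls. The means of 3995.4 ± 825.1 (SD, n = 5) and 2289.3 ± 499.1 (SD, n = 4) differed 1.75-fold, with a log2 fold change of 0.80 (95% confidence interval 0.44 to 1.17, limma adjusted p = 0.00273). Leaving out 1 sample at a time gave log2 fold changes of 0.68 to 0.93. In the date fit it was 0.90 (95% confidence interval 0.23 to 1.58, limma adjusted p = 0.0948), which missed the threshold.

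*Irf9* (ENSMUSG00000002325, chromosome 14, 55841028 to 55847812, plus strand) encodes the DNA-binding subunit of ISGF3. It was measured at 2182.0, 2491.3, 2193.6, 2387.5 and 2344.4 normalized counts in Cre+ samples and at 1980.1, 2100.9, 1941.8 and 1921.2 in controls. All Cre+ samples were above all controls, but the gap was small beside that of *Usp18*. The means, 2319.8 ± 131.8 (SD, n = 5) and 1986.0 ± 80.4 (SD, n = 4), were 16.8% apart, and the log2 fold change was 0.22 (95% confidence interval 0.10 to 0.34, limma adjusted p = 0.00754). It fell short of the threshold with 75th percentile scaling (0.14, limma adjusted p = 0.067), with quantile normalization (0.14, limma adjusted p = 0.0737) and in the date fit (0.22, limma adjusted p = 0.191). The first bases of *Irf9* overlap the 3′ end of *Rnf31* on the same strand, whose log2 fold change was 0.24 (limma adjusted p = 0.0746).

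*Usp18* (ENSMUSG00000030107, chromosome 6, 121222848 to 121247877, plus strand) gave 598.6, 915.9, 730.8, 721.4 and 646.6 normalized counts in Cre+ samples. Controls gave 230.6, 385.6, 264.4 and 248.5. Even the lowest Cre+ sample, sample 1, lay well above the highest control, control 2. The means were 722.7 ± 121.0 (SD, n = 5) and 282.3 ± 70.2 (SD, n = 4), and the log2 fold change was 1.37 (standard error 0.16, 95% confidence interval 1.02 to 1.71, limma adjusted p = 7.95e-05). All 20 alternative fits called it, with log2 fold changes of 1.17 to 1.53. Of the 9 genes it alone passed in the date fit (1.17, 95% confidence interval 0.55 to 1.79, limma adjusted p = 0.0323), where 8.78% of all genes tested passed and 4.24% were higher.

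**Figure D2:**
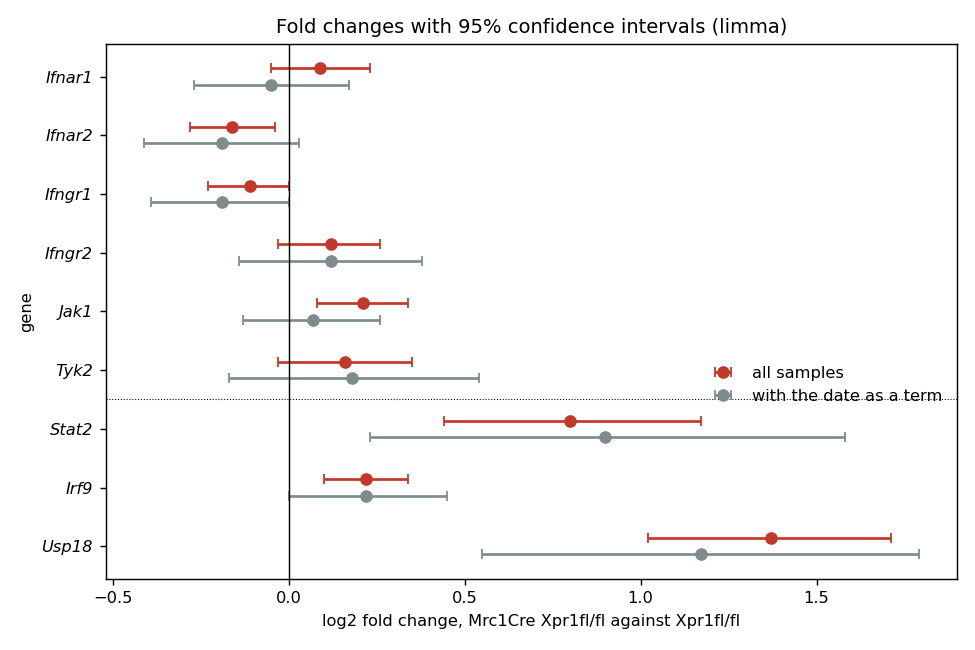
Log2 fold change of each gene (x axis, Mrc1Cre Xpr1fl/fl against Xpr1fl/fl) with its 95% confidence interval from limma, for the fit of all samples (red) and the date fit (gray). *Usp18* and *Stat2* stand at 1.37 and 0.80, and the other 7 genes lie between −0.16 and 0.22.

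Within the earliest date, Cre+ sample 5 can be set beside controls 1 to 3 without a test. *Usp18* was 646.6 there against 230.6 to 385.6, which is 2.2 times the mean of those controls. *Stat2* was 4200.4 against 1756.9 to 2960.7 (1.83 times), and *Irf9* was 2344.4 against 1941.8 to 2100.9 (1.17 times). These 3 genes were thus above the controls of their own date, as were *Tyk2* and *Ifngr2*, while *Ifnar2* and *Ifngr1* were below them and *Ifnar1* and *Jak1* were within their range.

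The promoters were read from GRCm39, from 250 bases before to 50 bases after the start of each gene's canonical transcript, and searched for the ISRE core GAAANNGAAA and for the gamma-activated site TTCNNNGAA, on both strands. The ISRE core was present in 3.76% of 13045 promoters of protein-coding genes in the table, and the gamma-activated site in 7.70%. *Usp18* held 2 ISRE cores, with first bases at −75 and −51 from the start site, and *Stat2* held 1 at −207. Neither motif was found in the windows of *Irf9*, *Ifnar1*, *Ifngr1*, *Ifngr2*, *Jak1* or *Tyk2*, which says nothing of binding elsewhere. The window of *Irf9* lay wholly inside the annotated gene, so no base upstream of that gene was searched, unlike for the other genes. The window of *Ifnar2* held 1 gamma-activated site at −214. The stretches upstream of the first annotated base are printed 5′ to 3′ on the plus strand, for the 2 genes of the 9 that rose most and for a receptor gene, with ISRE cores (*Usp18*, *Stat2*) or the gamma-activated site (*Ifnar2*) in capitals. They lie at chr6:121222607-121222847, chr10:128106102-128106351 and chr16:91169421-91169617.
Usp18: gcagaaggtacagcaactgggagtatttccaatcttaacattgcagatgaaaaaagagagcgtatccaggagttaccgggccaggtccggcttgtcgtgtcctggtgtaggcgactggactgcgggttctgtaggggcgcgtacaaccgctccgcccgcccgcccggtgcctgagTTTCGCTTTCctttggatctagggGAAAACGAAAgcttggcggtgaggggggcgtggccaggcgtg
Stat2: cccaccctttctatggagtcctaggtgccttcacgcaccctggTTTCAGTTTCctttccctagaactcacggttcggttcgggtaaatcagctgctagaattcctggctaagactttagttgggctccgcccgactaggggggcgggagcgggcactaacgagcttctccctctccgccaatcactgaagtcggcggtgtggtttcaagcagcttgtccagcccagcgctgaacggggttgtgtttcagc
Ifnar2: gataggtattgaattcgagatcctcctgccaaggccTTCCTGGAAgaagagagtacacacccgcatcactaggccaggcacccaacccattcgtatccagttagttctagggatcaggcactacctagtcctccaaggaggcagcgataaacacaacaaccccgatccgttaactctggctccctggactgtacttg
A match is a description of letters and not a measured binding site. Among the other pathway genes described below, *Isg15*, which was higher, held 3 ISRE cores, but *Irf7*, *Herc6* and *Irf2bpl*, which were also higher, held 0 in these windows. *Hgs* (higher), *Stat4* (lower) and *Irf2* (not called) held 1 each.

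Per kilobase of the canonical transcript, the control levels of the 9 genes spanned a wide range. *Ifngr1* was highest at 3860 normalized counts per kb, followed by *Ifnar2* at 1800, *Jak1* at 1380, *Ifnar1* at 1040 and *Ifngr2* at 832. *Irf9* (713), *Stat2* (508) and *Tyk2* (492) were lower, and *Usp18* was lowest at 159. In the order of control levels, *Stat2* (390 to 657) and *Tyk2* (458 to 515) overlapped, and the other neighbors did not, although the lowest control of *Ifngr2* (757) was close to the highest of *Irf9* (755). Among protein-coding genes of the table these levels stood at percentiles from 96.7 for *Ifngr1* to 43.3 for *Usp18*. In Cre+ samples *Stat2* averaged 887 and *Irf9* 833 normalized counts per kb, with overlapping samples, and *Usp18* at 406 was still the lowest of the 9.

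Ratios of partner genes within a sample do not depend on how that sample was scaled, and 8 of them were compared between genotypes with two-sided exact permutation tests, where 126 splits allow a smallest p of 0.00794. The ratio of *Usp18* to *Ifnar2*, the inhibitor to the chain it binds, was 2.88 times higher in Cre+ samples, with log2 ratios of −3.17, −2.46, −2.96, −2.85 and −3.01 against −4.75, −3.81, −4.53 and −4.56 (exact p = 0.00794, adjusted p = 0.0317 over the 8 ratios). *Usp18* to *Irf9* was 2.21 times higher, also without overlap (exact p = 0.00794, adjusted p = 0.0317). So *Usp18* differed more than either of these genes.

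Within ISGF3, the log2 ratio of *Stat2* to *Irf9* was 0.42, 1.04, 0.70, 0.81 and 0.84 in Cre+ samples and −0.17, 0.49, 0.17 and 0.24 in controls. *Stat2* thus differed more than *Irf9*, by 1.49-fold (exact p = 0.0238, adjusted p = 0.0476), and only Cre+ sample 1 lay below a control. This call was lost in 8 of the 9 comparisons that left out 1 sample, with differences in log2 ratio of 0.46 to 0.68. The smallest possible exact p is then larger (0.0286 without 1 Cre+ sample, 0.0179 without 1 control), so the threshold is harder to reach. *Irf9* to *Jak1* differed by 0.02 on the log2 scale (exact p = 0.857, adjusted p = 0.857).

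Between the receptors, the ratio of *Ifnar1* to *Ifngr1* was higher by 0.20 on the log2 scale in Cre+ samples (exact p = 0.0159, adjusted p = 0.0423). The groups only just did not overlap, with Cre+ sample 5 at −0.83 and control 2 at −0.84. None of the ratio tests takes the date into account. *Ifnar1* to *Ifnar2* was higher by 0.24 and missed the threshold after adjustment (exact p = 0.0317, adjusted p = 0.0508). *Ifngr1* to *Ifngr2* had a difference of −0.23 (exact p = 0.0635, adjusted p = 0.0847). The kinases showed the smallest shift among partners of the same kind, with a difference of 0.05 for *Jak1* to *Tyk2* (exact p = 0.802, adjusted p = 0.857). Altogether 4 of the 8 ratios passed. With any 1 Cre+ sample left out none of the 8 passed after adjustment. The smallest exact p of 4 samples against 4 is 0.0286, which passes after adjustment over 8 ratios only if several ratios reach it together. Even a ratio with full separation could therefore fail, so this loss cannot decide whether a ratio depends on 1 sample.

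**Figure D3:**
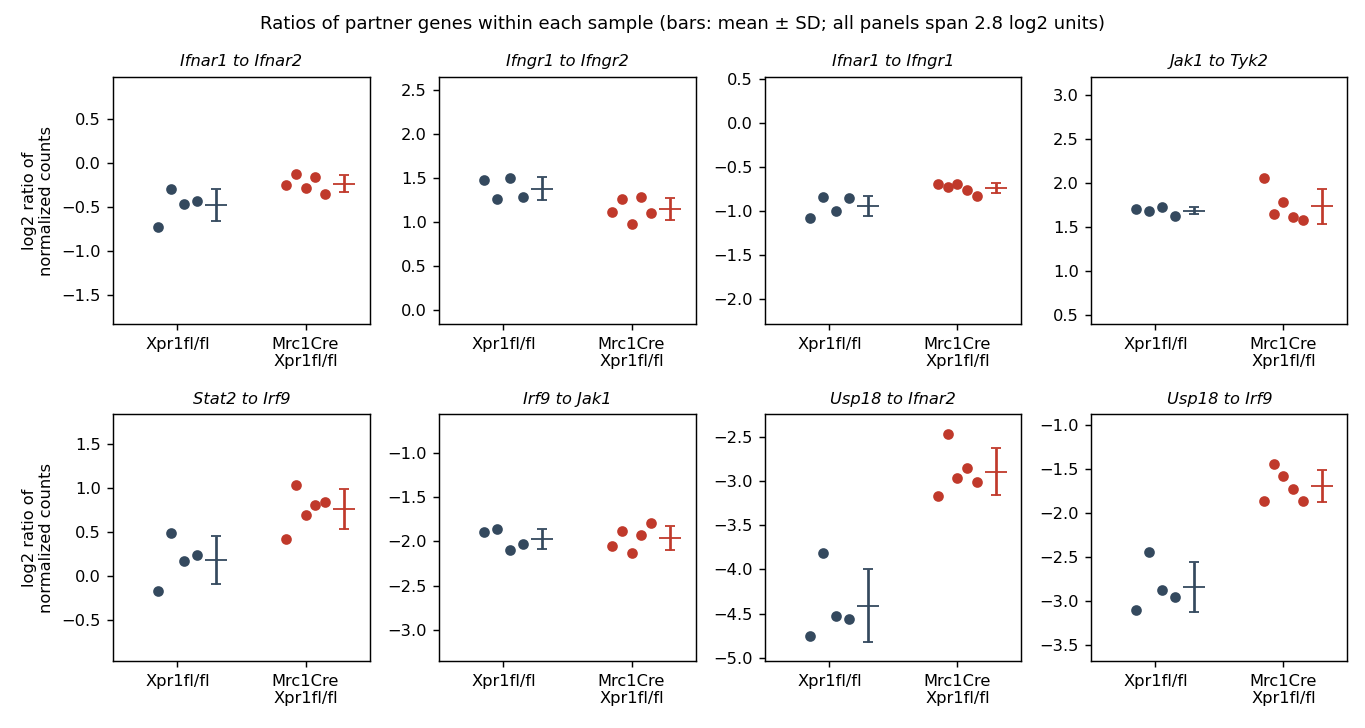
Log2 ratio of normalized counts of 8 pairs of genes (y axes, each spanning the same range) in each Xpr1fl/fl and Mrc1Cre Xpr1fl/fl sample, with bars for the mean ± SD. The ratios of *Usp18* to *Ifnar2* and to *Irf9* are separated between genotypes, and those of *Jak1* to *Tyk2* and *Irf9* to *Jak1* lie at the same height.

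Other genes of the pathway were counted from lists drawn up by function. Of 53 with values, 25 were higher, 9 were lower and 19 did not pass, and in the date fit 10 passed, each of them higher. Among all genes tested 43.1% were called and 21.5% were higher, and in the date fit 8.78% were called and 4.24% were higher. Among the other receptor chains and kinases, *Jak3* (log2 fold change −0.27, limma adjusted p = 0.00418) and *Il10rb* were lower, and *Il10ra* (−0.06) and *Jak2* (−0.01), the kinase of the IFNGR2 chain, did not pass. Of 5 other STAT genes reported here, *Stat3* (0.35), *Stat5b* (0.22) and *Stat6* (0.22) were higher, and *Stat5a* (0.01) did not pass. *Stat4*, named because it was the single lower gene of that list, averaged only 33.4 normalized counts. *Stat3*, *Stat5b* and *Stat6* thus had log2 fold changes below the 0.80 of *Stat2*, and in the date fit theirs were 0.20, 0.06 and 0.28.

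The IRF list held 4 genes that were higher and 1 that was lower of 10. *Irf7*, an interferon-induced factor that drives further type I interferon expression, had 8148.4, 11905.8, 9308.3, 9481.2 and 8546.8 normalized counts in Cre+ samples and 3284.3, 4510.4, 2569.8 and 3308.1 in controls (log2 fold change 1.49, limma adjusted p = 3.43e-05). Its lowest Cre+ sample was above its highest control. *Irf2bpl* (0.59), *Irf5* (0.37) and *Irf1* (0.35) were also higher, *Irf3* (−0.17) was lower, and *Irf8* (0.10), *Irf2* (0.07) and *Irf4* (−0.43) did not pass. The groups overlapped for *Irf1*, with Cre+ sample 1 at 2422.4 and control 1 at 2470.7, and Cre+ sample 5 was highest at 3962.2. Its limma adjusted p was 0.0444, and up to 0.128 in alternative fits.

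Of 18 genes for SOCS proteins, PIAS proteins and phosphatases, which restrain cytokine signaling at the receptor or at STATs, 9 were higher and 2 lower. The largest rises among genes with at least 50 normalized counts on average were those of the phosphatase genes *Ptprc* (0.85), which encodes CD45, and *Ptpn1* (0.54), then *Socs7* (0.48) and *Ptpn6* (0.38). *Socs2*, a feedback inhibitor of growth hormone signaling, was lower, at 93.1 to 195.3 normalized counts in Cre+ samples and 288.7 to 514.5 in controls (log2 fold change −1.48, limma adjusted p = 0.000321), and so was *Pias3* (−0.59). *Socs3* (−0.14) and *Cish* (−0.59) did not pass. *Socs1*, an interferon-induced inhibitor of JAK kinases named although it averaged only 48.9 normalized counts, was higher (log2 fold change 0.88, limma adjusted p = 0.0343). Unlike for *Usp18*, the groups overlapped, with Cre+ sample 3 at 36.3 and control 1 at 43.1. It missed the threshold in some alternative fits, with limma adjusted p-values of up to 0.0853.

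USP18 acts on ISG15, and the genes of ISG15 conjugation split. *Isg15* itself had 1334.1, 2118.1, 1437.3, 1508.5 and 1451.5 normalized counts in Cre+ samples and 551.7, 685.2, 327.0 and 551.7 in controls (log2 fold change 1.60, limma adjusted p = 0.000105), and the ligase genes *Herc6* (0.76), *Trim25* (0.45) and *Arih1* (0.44) were higher. *Ube2l6* (−0.58), the conjugating enzyme, and *Uba7* (−0.35), the activating enzyme, were lower. In the date fit *Isg15* (1.54) and *Herc6* (0.79) passed, and *Ube2l6* (−0.20) and *Uba7* (0.08) did not. In all 5 of 8 genes were higher and 2 lower. Of 8 genes for receptor ubiquitination, sorting and turnover, 4 were higher, led by *Fbxw11* (0.26) and *Hgs* (0.20), and *Btrc* (−0.46), which like *Fbxw11* encodes a subunit of the ubiquitin ligase for IFNAR1, was lower. The 21 interferon ligand genes of the list had no values in the deposited data and could not be tested, which does not measure their expression.

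**Figure D4:**
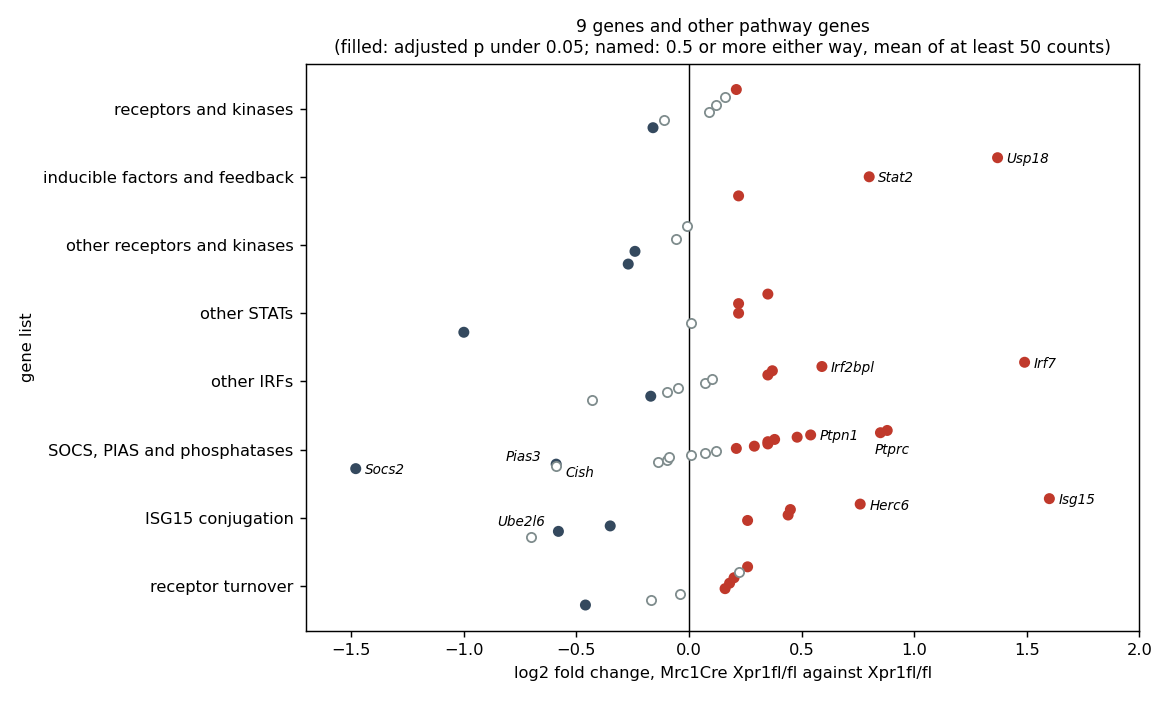
Log2 fold changes (x axis, Mrc1Cre Xpr1fl/fl against Xpr1fl/fl) of the 9 genes and of 53 other pathway genes by list (y axis), filled where the limma adjusted p was under 0.05, red where higher and dark where lower. *Usp18*, *Irf7* and *Isg15* lie at 1.37, 1.49 and 1.60, and the receptors and kinases lie near 0.

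The genes whose log2 values followed the inducible genes most closely over the 9 samples were named from all tested genes with at least 50 normalized counts on average. For *Usp18* they were *Zfp407*, *Parp12* and *Ifi209* (Pearson r of 0.99 each), for *Irf9* they were *Mx1*, *Mndal* and *Lrch3* (0.98 each), and for *Stat2* they included *Ehmt2* (0.97) and *Samd9l* (0.96). After each genotype's mean was removed, these correlations were 0.89 to 0.95. They are among the highest of all tested genes over few samples that share libraries and scaling, and are given as a description. *Ifi209* and *Mndal* belong to a multigene family whose near-identical copies can share reads.

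Markers of other cells moved with the genotype, and their counts stand beside the 21.6% of all genes tested that were lower. The summed level of 12 erythroid markers was 105126.3 to 316843.1 in Cre+ samples, highest in sample 5, and 414507.6 to 655278.0 in controls, and 12 of 12 were lower. Of 11 endothelial markers 10 were lower (sums of 15895.1 to 21195.8 against 27162.4 to 34960.0), and 9 of 9 hepatocyte markers were lower (34887.5 to 45141.4 against 58820.5 to 101167.4). Of 11 granulocyte and progenitor markers 5 were lower and 6 did not pass, with overlapping sums (5838.5 to 18857.4 against 10101.7 to 55955.8). Of 5 lymphocyte and NK markers with values 5 were lower (sums of 126.6 to 230.5 against 346.5 to 839.4), and none of the markers with values was at 0 in any sample. Of 12 monocyte markers 5 were higher and 4 lower, with sums of 77623.7 to 89168.2 against 73561.0 to 84117.4. Of the macrophage markers 1 was higher and 8 were lower. In the date fit the median log2 fold change of erythroid markers was −0.87, against −1.79 without the date. It was also smaller in size for endothelial (−0.99 against −1.11), hepatocyte (−0.56 against −1.11) and macrophage markers (−0.15 against −0.27). The same held for granulocyte and progenitor markers (−0.77 against −1.42). It was larger in size for lymphocyte and NK markers (−2.2 against −1.53) and for monocyte markers (−0.31 against −0.12). In bulk samples fewer cells of a type and less RNA per cell cannot be told apart, and the part of these cells in the differences of the 9 genes was not tested.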

How the data were processed

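Bulk RNA-seq was analysed for 5 Mrc1Cre Xpr1fl/fl and 4 Xpr1fl/fl samples. According to the methods, the authors made stranded libraries from 45 ng of total RNA, sequenced them paired-end, quantified reads with salmon on GRCm39 and imported them with tximport into DESeq2. Versions are not given in the sources used here. The authors deposited 1 signal value per gene and sample, the DESeq2-normalized count, for 13708 genes, of which 13698 matched a symbol in GENCODE release 39 for mouse. Whole reads could not be recovered, so no count test was run and depth is unknown.

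Genotypes were compared with limma 3.58.1 in R 4.3.3 (eBayes, trend fitted) after adding 1 to each normalized count and taking log2. Genes entered if 4 or more samples reached 10 normalized counts, with Benjamini-Hochberg adjustment over all 13594 genes tested and a threshold of 0.05. Adding 1 shrinks the fold changes of genes with low counts. On simulated data for this comparison, limma recovered 200 of 200 changed genes and called 10 unchanged genes of 13549 tested. Recovery of log2 fold changes as small as those of the receptors and kinases was not tested. Ratios were compared by exact permutation. Levels per kb used the Ensembl canonical transcript. The 20 alternatives were other pseudocounts, filters, scalings and limma settings, the replicate number as a block, the date, and leaving out each sample. They reuse the same samples, so their number is not a count of independent checks. The block by replicate number gave the same log2 fold changes of the genes described here as leaving out Cre+ sample 5, which has no control of its number.

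The 9 genes and the lists were chosen with earlier results of these data known. Pathway genes were named within the count of their list, largest log2 fold change first, for means of at least 50 normalized counts, and *Stat4* and *Socs1* were named after their values were seen. Some genes that the lists or this rule would name are not reported here.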

Additional observations from a re-analysis of the deposited data

Results flagged for a closer look

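Of 36 sets of values in which a sample could be set against the rest of its group (the 9 genes, *Xpr1* and the 8 ratios in each genotype), 4 had a sample standing apart, where chance gives 1.8. *Ifnar1* had 2 such samples: Cre+ sample 5 at 4052.4 normalized counts, below the other Cre+ samples at 4534.0 to 4657.6, and control 1 at 3754.6, below the other controls at 4363.4 to 4445.7. For *Ifngr1*, control 3 stood at 8880.7 normalized counts, above the other controls at 7853.3 to 7922.6. For *Ifngr2*, Cre+ sample 3 stood at 3829.0 normalized counts, above the other Cre+ samples at 3192.7 to 3370.1. None of these samples stood apart for *Stat2*, *Irf9* or *Usp18*.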

How the results depend on the processing

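*Usp18* was called in all 20 alternative fits and *Stat2* in 19. Main counts were 4 genes higher and 1 lower of the 9, 34 other pathway genes and 5865 genes in all. Scaling to the 75th percentile left 2 of the 9 higher and 2 lower, and so did quantile normalization. The 75th percentile scaling moved the median log2 fold change of all genes to −0.07, with 1999 genes higher and 3706 lower in place of 2926 and 2939. In the fit that includes the date, 1 of the 9 was higher and 0 were lower by limma (also 0 at an unadjusted p under 0.05), with 10 other pathway genes and 1194 genes in all. Without trend and with array weights 0 of the 9 were lower, with adjusted p-values from limma of 0.0669 and 0.0585 for *Ifnar2*, which had passed before (0.268 in the date fit), and with 1 and 2 of the 9 lower at an unadjusted p under 0.05. The log2 fold change of *Ifnar1*, not called in any fit, was −0.03 after quantile normalization and −0.05 with the date. The cause of these changes was not tested.

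Leaving out 1 sample at a time gave 4 to 5 of the 9 higher, 0 to 1 lower, 28 to 33 other pathway genes, 4815 to 6081 genes in all and 0 to 5 ratios past the threshold. The difference in the ratio of *Jak1* to *Tyk2* then ran from −0.03 to 0.09 and that of *Irf9* to *Jak1* from −0.03 to 0.06.

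The replicate numbers name samples only: correlations of the deviations of same-numbered samples were −0.033, 0.147, −0.011 and −0.031. With the replicate number as a block, 6226 genes passed, 4 of the 9 were higher and 1 was lower.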
